A study of Mus musculus with 2 samples.

Results

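The transcription factors that give microglia and other macrophages their identity were examined in brain mononuclear cells of CD47 KO and WT mice. The 9 genes were *Spi1*, *Irf8*, *Sall1*, *Mef2a*, *Mef2c*, *Runx1*, *Cebpa*, *Cebpb* and *Bhlhe41*. All probe sets whose platform annotation gives exactly 1 gene symbol, that of one of these genes, were taken whatever their signal, which gave 27 of the 34945 named probe sets and 9 of 18193 named genes. The CD47 KO mice (*Cd47*-/-) lack the ligand of SIRPα in every cell and were 12 to 16 wks of age. The WT mice were 10 to 15 wks of age, and all animals are labelled male. Cells were taken from digested whole brain at the Percoll interface where microglia gather, and RNA was pooled from 6 CD47 KO mice and from 7 WT mice. Each pool was amplified from 20 ng of RNA and read on 1 array, so there is no replicate, no error between animals and no p-value for any difference.

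Microglia arise from yolk sac precursors and keep their state through a small set of DNA-binding proteins. PU.1, encoded by *Spi1*, opens myeloid enhancers and acts with IRF8 on shared ETS and IRF sites, while RUNX1 and the C/EBP proteins act in the precursors and in the response to inflammatory signals. SALL1, and the MEF2 proteins, are tied to the microglial state in the adult brain, where the MEF2 proteins are also abundant in neurons. BHLHE41 is a repressor that binds the E-box and is found with its relative BHLHE40 in tissue macrophages.

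The deposited values are MAS5 signals, 1 linear brightness value per probe set, scaled by the authors' software. They compare the same probe set between arrays and do not rank different genes by abundance. Probe sets that reached the median signal of their own array (146 in CD47 KO, 161 in WT) on either array are called expressed, and each gene is represented by its brightest probe set, the one with the highest mean of both signals. *Cd47* was lower in CD47 KO cells on all 5 of its probe sets, with Log2 ratios (KO/WT) between -1.86 and -1.45, and whether these read the sequence removed or altered in the knockout is not known here. The defining microglial markers were present on both arrays. *Tmem119* had a signal of 5857 in CD47 KO cells and 5273 in WT cells. All 20 microglial markers with a named probe set, *Trem2* among them, were expressed.

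Promoter sequences from RefSeq (GRCm38.p6) were matched by symbol to 8 of the 9 genes, with 14 annotated starts. *Spi1* was not among them. The 250 bases before each start were searched on both strands for GGAAGT and its longer form GAGGAAGT (ETS, PU.1), GAAA and GAAA with 2 bases between them (IRF), GGAA and GAAA with 2 bases between them (joint ETS and IRF), TGTGGT (RUNX), TTNNGNAA (C/EBP), CACGTG (E-box) and TTCNNNGAA (the GAS element of STAT proteins). Every GAGGAAGT also counts as a GGAAGT. At least 1 match was found in 6 of the 14 windows, which belong to *Irf8*, *Sall1*, *Mef2c*, *Runx1* and *Bhlhe41*. The share of all promoter windows with a match to any of these motifs was not counted, so nothing is read from that count. Of all 32851 promoter windows, 36.8% hold TTNNGNAA, 19.7% GGAAGT, 14.0% TGTGGT, 7.02% TTCNNNGAA, 6.02% CACGTG, 2.98% the IRF motif, 2.44% GAGGAAGT and 2.30% the joint motif. Shown are *Irf8*, *Runx1* and *Bhlhe41*, on whose probe sets the results below turn, with matches in capitals. The upstream *Irf8* start lies after chr8:120736108-120736357 (plus strand) and has 2 GAS matches, at bases -171 to -163 and -153 to -145 from the start. The downstream *Irf8* start, not shown, had no match. *Runx1*, which is transcribed from a distal and a proximal promoter, is shown at chr16:92826075-92826324 (distal, minus strand), with an E-box at -71 to -66, and at chr16:92697330-92697579 (proximal, minus strand), with no match. *Bhlhe41* is shown at chr6:145865421-145865670 (minus strand), with an E-box, the site its own protein binds, at -153 to -148.
Irf8: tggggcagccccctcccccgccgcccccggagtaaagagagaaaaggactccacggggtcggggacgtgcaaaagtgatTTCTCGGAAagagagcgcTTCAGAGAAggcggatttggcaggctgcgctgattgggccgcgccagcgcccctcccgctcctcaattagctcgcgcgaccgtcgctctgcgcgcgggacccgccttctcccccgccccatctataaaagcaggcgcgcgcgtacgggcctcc
Runx1 distal: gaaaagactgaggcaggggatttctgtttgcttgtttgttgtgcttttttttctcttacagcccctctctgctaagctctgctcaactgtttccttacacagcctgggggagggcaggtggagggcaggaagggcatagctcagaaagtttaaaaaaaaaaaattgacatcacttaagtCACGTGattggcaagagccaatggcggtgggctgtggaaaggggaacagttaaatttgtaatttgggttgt
Runx1 proximal: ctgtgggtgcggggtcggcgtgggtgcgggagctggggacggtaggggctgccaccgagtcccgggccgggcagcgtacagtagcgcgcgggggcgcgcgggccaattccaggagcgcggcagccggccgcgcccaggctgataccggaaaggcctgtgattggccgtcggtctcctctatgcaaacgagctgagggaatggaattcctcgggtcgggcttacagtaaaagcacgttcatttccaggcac
Bhlhe41: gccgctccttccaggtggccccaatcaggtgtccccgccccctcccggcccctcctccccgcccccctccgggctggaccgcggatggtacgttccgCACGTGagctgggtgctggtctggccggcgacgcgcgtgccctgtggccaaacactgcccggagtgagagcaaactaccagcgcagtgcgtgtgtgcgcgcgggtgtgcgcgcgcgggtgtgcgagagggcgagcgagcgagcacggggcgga
The matches describe these windows only, and no binding was measured.

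Across the 9 genes, signals were slightly higher in CD47 KO cells. On the brightest probe set 8 were higher and *Cebpb* was lower, a count that ran from 6 to 9 under 10 other ways of processing and was 5 with ratios centred on the microglial markers. Under stricter signal thresholds *Bhlhe41* was not expressed on its brightest probe set and was left out of that count. The median Log2 ratio was 0.20, against 0.00 over all 11682 expressed genes, of which 50.3% were higher. Of the 27 probe sets, 25 were expressed. In CD47 KO cells 17 of these were higher and 8 lower, where 50.7% of all 21167 expressed probe sets were higher. None of the 25 was more than 2-fold higher or lower, where 3.95% and 5.49% of all expressed probe sets were (9.44% in either direction), although *Bhlhe41* had 1.02 after lowess and 1.04 after quantile normalisation. Of the 25, 14 lay in the brightest quartile of expressed probe sets (mean signal above 1156), where 0.888% of all probe sets passed, 6 in the next quartile (3.40%), 2 in the one below it (9.58%) and 3 in the dimmest (23.9%). The median Log2 ratio of all expressed probe sets also varied with signal. It was 0.05 in the brightest quartile and -0.01, -0.02 and -0.07 in the others, in the same order.

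**Figure D1:**
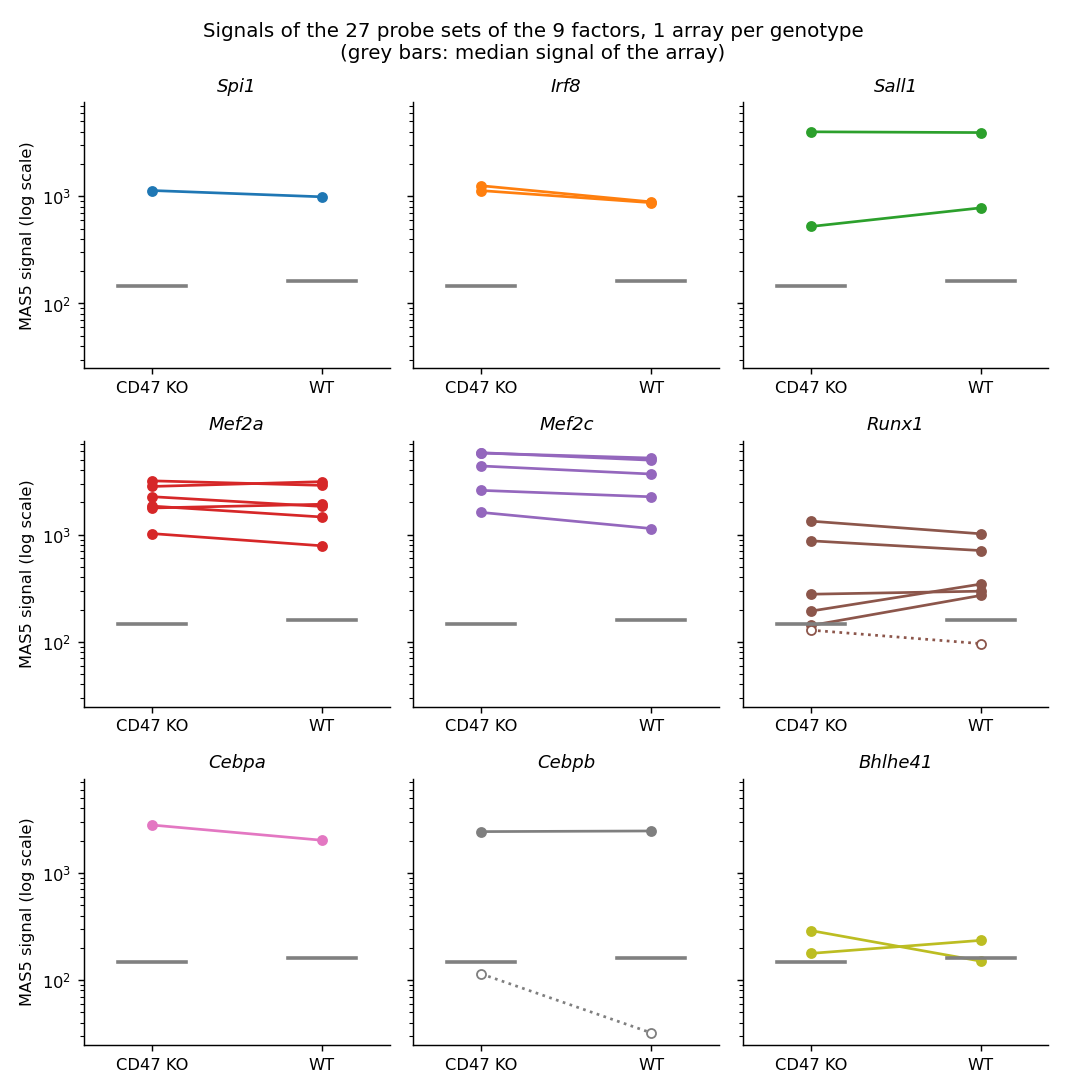
MAS5 signals (log scale) of each probe set in the CD47 KO and the WT pool, 1 point per array, with lines joining the same probe set. Open points with dotted lines are the 2 probe sets that stayed below the median of both arrays (grey bars). The CD47 KO end is the higher one on all 5 *Mef2c* lines, while the lines of *Runx1* and *Bhlhe41* slope both ways.

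The only internal measure of error is how far probe sets of the same gene differ. Over all genes with 2 or more expressed probe sets, the SD of their Log2 ratios was 0.32 in the brightest quartile, 0.46 and 0.57 in the quartiles of middle signal and 0.82 in the dimmest. It also holds probe effects and transcript forms, and it does not cover the difference between animals. Of the 25 expressed probe sets, 9 exceeded this SD, 6 of them higher and 3 lower, which is 36.0% where 28.1% of all expressed probe sets did. The SD of all Log2 ratios in a quartile was of similar size, at 0.32, 0.46, 0.61 and 0.98 from the brightest to the dimmest. Exceeding the SD between probe sets therefore does not set a probe set apart from the general spread of ratios.

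**Figure D2:**
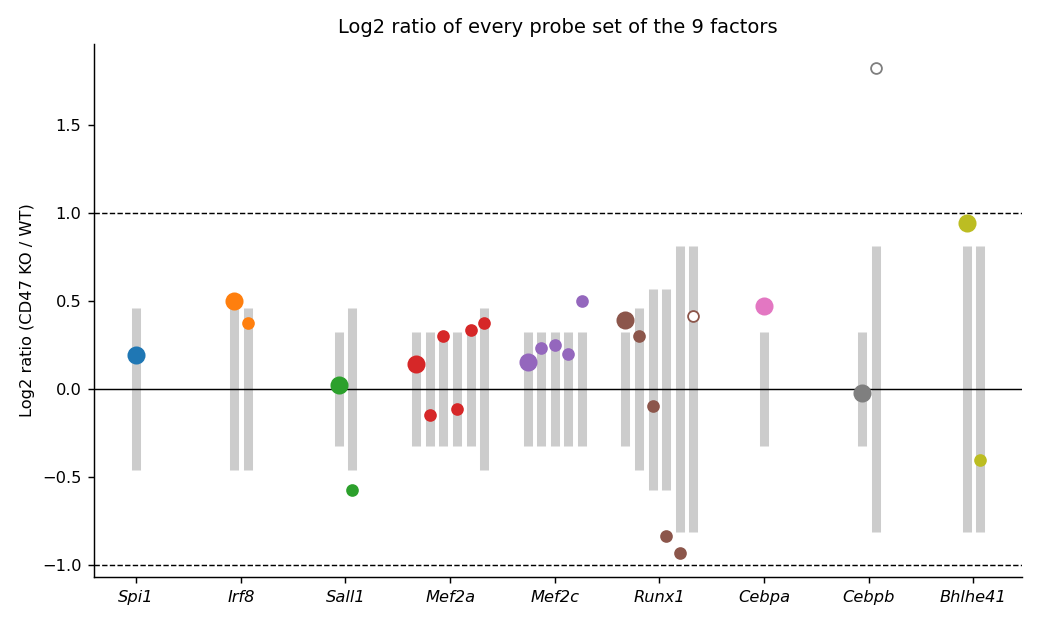
Log2 ratio (KO/WT) of all 27 probe sets, by gene and from bright to dim within a gene, with 1 array per genotype. Large points are the brightest probe set of a gene, open points are not expressed, grey bars span 1 SD between probe sets of a gene at that signal and dashed lines mark 2-fold. *Irf8* and *Mef2c* lie on 1 side of 0 throughout, and *Runx1* runs from 0.39 to -0.93 over its expressed probe sets.

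*Spi1* is read by a single probe set (1418747_at), with a signal of 1134 in CD47 KO cells and 991 in WT cells, a Log2 ratio of 0.20. It was 1.15-fold higher in CD47 KO cells, which is less than the SD at its signal, and 30.3% of expressed probe sets in its quartile had a ratio at least as high. Its relative *Spib*, which acts in B cells and plasmacytoid dendritic cells, had 458 in CD47 KO and 401 in WT cells and a Log2 ratio of 0.19. With RNA of a mixed preparation, fewer cells of a type and less RNA per cell cannot be told apart, here or for any gene that follows.

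*Irf8*, which encodes the partner of PU.1 in microglia and monocyte precursors, was higher in CD47 KO cells on both of its probe sets. They had signals of 1256 and 1131 in CD47 KO cells, against 888 and 873 in WT cells. The Log2 ratios were 0.50 and 0.37, or 1.41-fold and 1.30-fold. Both were designed on the same transcript sequence, so they do not read the gene independently. The higher ratio just exceeded the SD of 0.46 at that signal, and 10.8% of expressed probe sets in the same quartile had a ratio at least as high. *Irf8* stayed between 0.33 and 0.53 under every setting tried, some of which, such as the signal thresholds, could not change its ratio.

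The other expressed members of the IRF family were divided. *Irf1*, an interferon-induced activator, had a signal of 326 in CD47 KO cells and 461 in WT cells, a Log2 ratio of -0.50. *Irf2*, its antagonist, had 0.17, and *Irf9*, the DNA-binding part of the interferon-stimulated complex, had 0.20. *Irf3*, which acts in innate sensing of nucleic acids, had Log2 ratios of -0.28, 0.29 and -0.14, from bright to dim. *Irf5*, a factor of inflammatory macrophages, had -0.15 and 0.16 on its probe sets, and *Irf4*, known from lymphocytes, had -0.21 and -0.04. *Irf3*, *Irf4* and *Irf5*, the others with more than 1 expressed probe set, were thus each lower on at least 1 of them.

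*Irf8* and *Spi1* are also expressed in B cells and monocytes. Of the B cell markers, 6 of 9 with a named probe set were expressed, and 1 of the 6 was higher in CD47 KO cells (median Log2 ratio -0.42, summed signal of the 9 genes 3220 in CD47 KO and 4281 in WT). Of 7 monocyte markers, all expressed, 1 was higher (median -0.29, summed signal 19747 in CD47 KO and 24067 in WT cells). The 20 microglial markers were all higher in CD47 KO cells, with Log2 ratios from 0.07 to 0.66, a median of 0.17 and a summed signal of 198778 in CD47 KO and 174966 in WT. None of these markers was at 0. The part of these cell types in the *Irf8* and *Spi1* signals was not tested.

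*Runx1*, a factor of blood cell formation that is also used by microglia and T cells, gave a divided picture over its 6 probe sets. The brightest (1422864_at) had 1337 in CD47 KO cells and 1018 in WT cells, a Log2 ratio of 0.39. Another designed on the same sequence (1422865_at) had 875 in CD47 KO and 710 in WT cells, a ratio of 0.30. Both were higher in CD47 KO cells, and the brightest exceeded the SD of 0.32 at its signal.

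The 3 dimmer expressed probe sets of *Runx1* had ratios below 0. Probe set 1452530_a_at had a signal of 193 in CD47 KO cells and 345 in WT cells, and 1427650_a_at had 142 in CD47 KO and 270 in WT cells, with Log2 ratios of -0.84 and -0.93. Each exceeded the SD at its signal (0.57 and 0.82), and the CD47 KO signal of 1427650_a_at lay below the median of its array. Probe set 1452531_at had 278 in CD47 KO and 297 in WT cells, a ratio of -0.09, and 1440878_at, with 128 in CD47 KO and 96.1 in WT cells (0.42), was not expressed. Averaged over the 5 expressed probe sets the ratio was -0.23, against 0.39 on the brightest. Where each probe set lies relative to the distal and proximal starts shown above could not be found with the tables used here, and they were not assigned to transcript forms. *Cbfb*, the partner that RUNX proteins need to bind DNA firmly, had 4014 in CD47 KO and 3973 in WT cells, a Log2 ratio of 0.01. Of the T cell markers, 7 of 10 named were expressed and 3 of the 7 were higher (median -0.13, summed signal of the 10 genes 4744 in CD47 KO and 4371 in WT), a median that was 0.49 with the array median required on both arrays and 0.52 with the threshold at the 75th percentile. Of the expressed ones *Cd3g*, *Cd3d* and *Cd247* had 0.77, 0.54 and 0.49, *Lat* -0.13 and *Cd8a* -0.91. The other expressed probe set of *Cd8a* had 0.09. *Cd3e* and *Cd28* were past 2-fold lower, with 64.3 and 44.1 in CD47 KO cells, against 326 and 170 in WT cells (-2.34 and -1.95). *Cd4*, with 22.6 in CD47 KO cells and 101 in WT cells, lay below both array medians. Their part in the *Runx1* signals was not tested.

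*Cebpa*, which encodes the C/EBP protein of myeloid commitment, was 1.39-fold higher in CD47 KO cells on its only probe set (1418982_at). Its signal was 2798 in CD47 KO cells and 2017 in WT cells, a Log2 ratio of 0.47. This exceeded the SD of 0.32 at that signal, and 4.99% of expressed probe sets in the brightest quartile had a ratio at least as high. *Cebpb*, the member induced by inflammatory signals, had 2428 in CD47 KO cells and 2462 in WT cells, a Log2 ratio of -0.02 that became 0.01 when the arrays were centred. Its other probe set (1427844_a_at) had 114 in CD47 KO and 32.1 in WT cells, a Log2 ratio of 1.83, but lay below the median of both arrays and was not counted as expressed.

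Relatives of the C/EBP family lay on both sides of 0 as well. *Cebpd*, an acute-phase member, had 1286 in CD47 KO cells and 1648 in WT cells, with Log2 ratios of -0.36 on both probe sets. *Cebpg*, a short family member that pairs with other C/EBP and ATF proteins, had 1643 in CD47 KO and 1151 in WT cells, a ratio of 0.51, with 0.55 and -0.31 on the others. The pair of *Cebpa* and *Cebpg* thus stood above 0 on their brightest probe sets, and the pair of *Cebpb* and *Cebpd* at or below it.

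Of 12 named genes known to depend on C/EBP factors, 9 were expressed and 8 of these were lower in CD47 KO cells, with a median Log2 ratio of -0.11. *Elane*, the neutrophil elastase gene, was the only one past 2-fold, at 762 in CD47 KO cells and 1575 in WT cells (Log2 ratio -1.05), and was named after its value was seen. *Lcn2*, encoding lipocalin-2, had -0.61, the cytokine gene *Il1b* -0.11 and the lysozyme gene *Lyz2* 0.00. *Elane*, *Mpo* and *Csf3r* are also on the list of neutrophil markers. Without these 3 genes, 5 of 6 were lower and the median was -0.09. Of 11 named neutrophil markers 10 were expressed and 8 of the 10 were lower (median -0.25, summed signal of the 11 genes 71943 in CD47 KO and 74056 in WT), although *S100a9* and *S100a8* had 0.09 and 0.16. Astrocytes, which also express *Cebpb* and *Cebpd*, had 7 of 9 expressed markers higher (median 0.28, summed signal of 10 named genes 30342 in CD47 KO and 25474 in WT cells). The part of either cell type was not tested.

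*Sall1*, the zinc finger gene that marks microglia among macrophages, was close to equal on its brighter probe set. Probe set 1437983_at had a signal of 4005 in CD47 KO cells and 3940 in WT cells, a Log2 ratio of 0.02 that became -0.02 after quantile normalisation and -0.03 after lowess. On 1450489_at the signal was 523 in CD47 KO cells and 781 in WT cells, a Log2 ratio of -0.58, which is beyond the SD of 0.46 at that signal and was matched or exceeded downwards by 9.71% of probe sets in its quartile. The mean over both was -0.28. *Sall1* and *Cebpb* were the only genes of the 9 whose brightest probe set lay below the range of the 20 microglial markers (0.07 to 0.66). *Sall2*, a relative found in neural cells, had 484 in CD47 KO and 383 in WT cells, a ratio of 0.34.

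*Mef2c* and *Mef2a* had all their probe sets in the upper signal quartiles. All 5 *Mef2c* probe sets were higher in CD47 KO cells. Their signals in CD47 KO cells were 5765, 5817, 4371, 2589 and 1611, against 5187, 4953, 3679, 2255 and 1140 in WT cells in the same order. The Log2 ratios were 0.15, 0.23, 0.25, 0.20 and 0.50, with a mean of 0.27 ± 0.14 (SD over 5 probe sets, not over animals). The last of these, 1421028_a_at, was the only one beyond the SD at its signal. The first 3 were designed on 1 sequence, so the agreement is partly of the same stretch of transcript.

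*Mef2a*, a close relative with overlapping DNA sites, was higher on 4 of 6 probe sets and lower on 2. Signals in CD47 KO cells were 3178, 2816, 2260, 1773, 1846 and 1022, against 2884, 3122, 1833, 1921, 1461 and 787 in WT cells. The Log2 ratios were 0.14, -0.15, 0.30, -0.12, 0.34 and 0.38, of which 0.34 alone exceeded the SD at its signal, with a mean of 0.15 ± 0.23 (SD over 6 probe sets). The 3 designed on 1 sequence (0.14, 0.30 and 0.34) were all higher, and the 2 lower ones came from other sequences. With ratios centred on the microglial markers the brightest probe sets of *Mef2c* and *Mef2a* were just below 0. *Mef2d*, the third expressed family member, had 1031 in CD47 KO cells and 1045 in WT cells (Log2 ratio -0.02), and its dimmer probe sets had -0.45 and -0.63. All 12 neuronal markers were expressed, 7 of them higher in CD47 KO cells, with a median of 0.03 (-0.04 after lowess or quantile normalisation) and a summed signal of 50078 in CD47 KO and 48407 in WT. The brightest of them, *Snap25*, had a Log2 ratio of 0.00, and the part of neuronal RNA in the MEF2 signals was not tested.

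*Bhlhe41* had the highest Log2 ratio of the 9 genes on its brightest probe set and, with *Runx1* close behind, the widest gap between expressed probe sets. On 1421099_at the signal was 289 in CD47 KO cells and 150 in WT cells, a Log2 ratio of 0.95 (1.93-fold). On 1457096_at it was 177 in CD47 KO cells and 234 in WT cells, a ratio of -0.40. The probe sets thus differed by 1.35 and lay on opposite sides of 0, and their mean was 0.27. Both are dim, in the quartile where the SD is 0.82, and 11.2% of expressed probe sets there had a ratio of 0.95 or more. The WT signal of 1421099_at lay below the array median. *Bhlhe40*, its closest relative, had 632 in CD47 KO cells and 671 in WT cells, a Log2 ratio of -0.09.

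**Figure D3:**
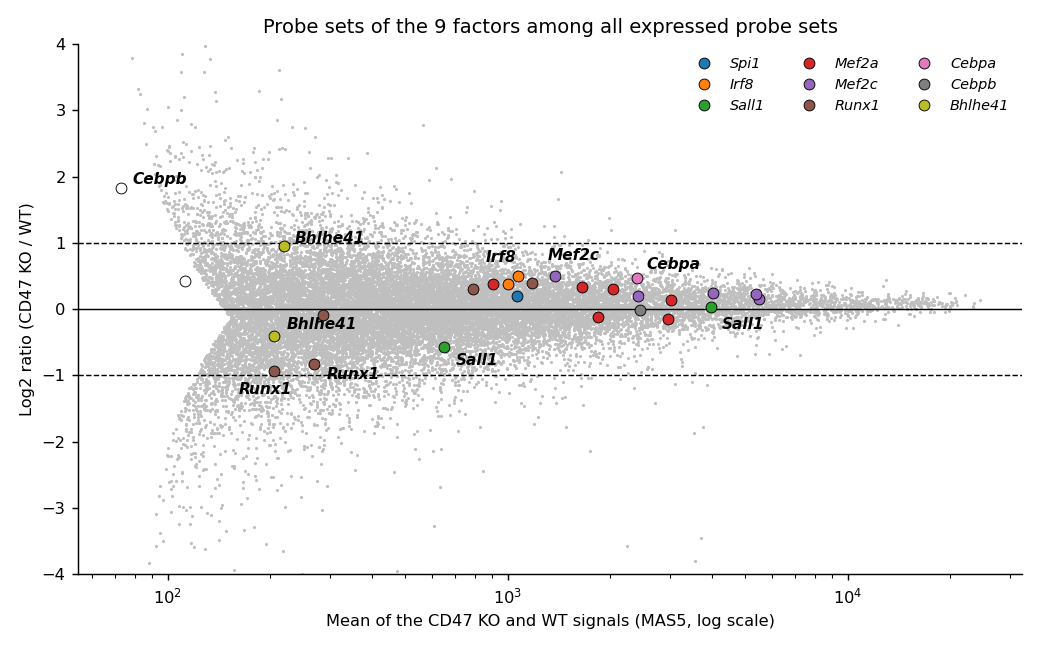
Every expressed probe set of the arrays (grey) by its Log2 ratio (KO/WT) and the mean of its CD47 KO and WT signals (log scale), with the probe sets of the 9 genes in colour and the 2 unexpressed ones open. Dashed lines mark 2-fold, and 27 probe sets with a Log2 ratio beyond 4 in either direction are not shown. The coloured points to the right of a signal of 1156 lie between -0.15 and 0.50, while *Bhlhe41* and the dim *Runx1* probe sets lie where the grey scatter is wide.

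Relatives by DNA-binding domain lay evenly on both sides of 0. Of 22 such genes (with *Cbfb*), 19 had a named probe set and 13 were expressed, 6 of them higher and 7 lower in CD47 KO cells. Their median Log2 ratio was -0.02, against 0.20 for the 9 genes and 0.00 for all expressed genes. None passed 2-fold on its brightest probe set, where 3.53% of all expressed genes were higher and 5.41% lower by that measure. Farthest from 0 were *Cebpg* and *Irf1*, at 0.51 and -0.50. The median was 0.01 with the arrays centred or as means over probe sets and -0.19 with ratios centred on the microglial markers.

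**Figure D4:**
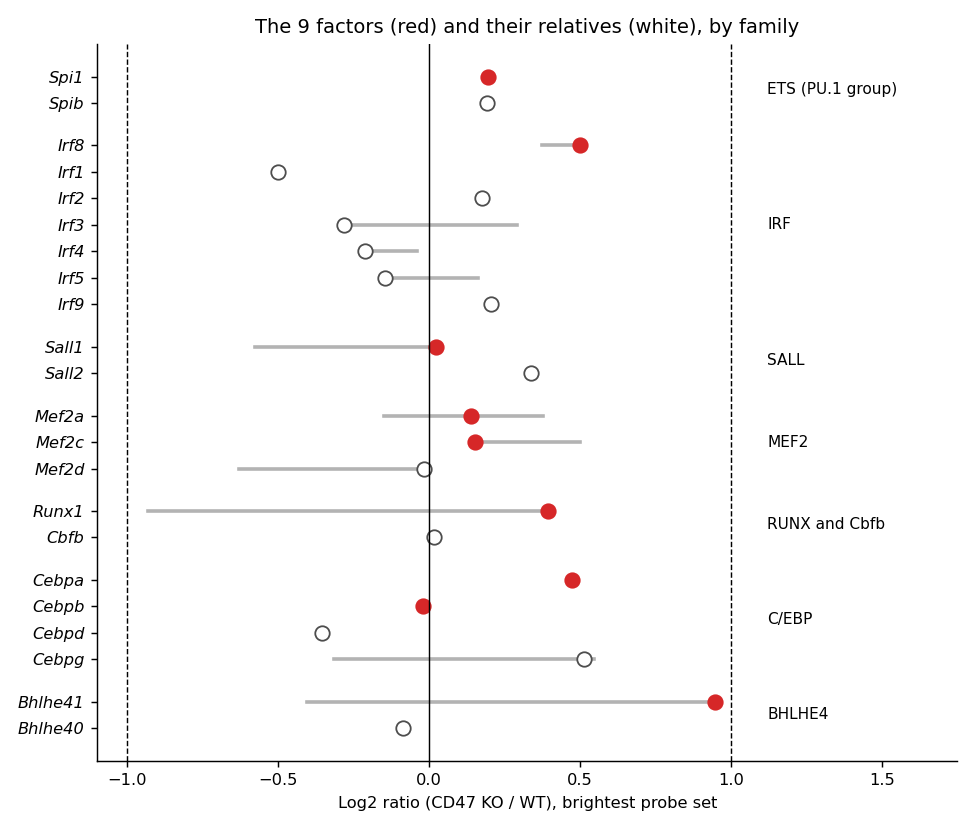
Log2 ratio (KO/WT) of the 9 genes (red) and their 13 expressed relatives (white), grouped by family, on the brightest probe set, with 1 array per genotype. Grey lines span the expressed probe sets of a gene and dashed lines mark 2-fold. *Irf8* lies at 0.50 and the other IRF genes between -0.50 and 0.20, and *Cebpa* and *Cebpg* lie to the right of *Cebpb* and *Cebpd*.

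Other transcription factors of macrophages and their precursors had a median close to 0. Of 37 named, 33 were expressed, 20 of them higher, 13 lower, with a median Log2 ratio of 0.06 (-0.11 with ratios centred on the microglial markers). Past 2-fold were *Elf1* and *Rxra*, both higher, where 3.53% of all expressed genes were past 2-fold higher and 5.41% lower. *Elf1*, an ETS factor of lymphoid and myeloid cells, had 310 in CD47 KO cells and 147 in WT cells (Log2 ratio 1.08), the WT signal being below the array median. *Rxra*, the retinoid X receptor gene, had 256 in CD47 KO and 126 in WT cells (1.02), and its other expressed probe set had -1.05. *Tfeb*, a regulator of lysosome genes, had 159 in CD47 KO and 94.8 in WT cells (0.74). These WT signals of *Rxra* and *Tfeb* were also below the array median. On the other side were *Nr1h3*, the liver X receptor gene, with -0.65, and the immediate early genes *Junb* and *Nr4a1* with -0.58 and -0.40.

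Genes known to depend on PU.1 or IRF8 in myeloid cells were mostly higher. Of 18 named, 15 were expressed, 12 of them higher and 3 lower in CD47 KO cells. None passed 2-fold, and the median Log2 ratio was 0.25, or 0.08 with ratios centred on the microglial markers. The brightest were *Cst3*, encoding cystatin C, with 21628 in CD47 KO cells and 19973 in WT cells (0.11), the CSF1 receptor gene *Csf1r* with 15949 in CD47 KO and 15185 in WT cells (0.07), and *Aif1* (Iba1) with 11698 in CD47 KO and 9813 in WT cells (0.25). The list shares *Csf1r*, *Itgam*, *Aif1* and *P2ry12* with the microglial markers. Without these 4 genes, 8 of 11 were higher and the median was 0.26. The NADPH oxidase gene *Cybb*, a joint target of both factors, was lower on its brightest probe set. That probe set had 533 in CD47 KO cells and 820 in WT cells (-0.62). Over its 3 expressed probe sets the Log2 ratios ran from -0.65 to 0.04. *Cybb* was named after its value was seen.

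Set beside the microglial markers, the 9 genes had a similar median, 0.20 next to 0.17 for the markers. Their range was wider through *Bhlhe41* alone (0.95), which is read in the dimmest quartile. The other genes ran from -0.02 to 0.50, and the markers, all with signals above 1156, from 0.07 to 0.66. *Spi1*, *Irf8*, *Mef2a*, *Mef2c*, *Runx1* and *Cebpa* lay within the range of the 20 markers on their brightest probe set, *Sall1* and *Cebpb* below it and *Bhlhe41* above it. The top of that range is *Cx3cr1* alone, with 0.66 on its brightest probe set and 0.21 on its other one. The next highest marker, *Trem2*, had 0.45, and *Irf8* and *Cebpa* lay above that value. With Log2 ratios centred on the marker median, a setting added after the data were seen, 5 of the 9 genes were above 0. These were *Bhlhe41* (0.78), *Irf8* (0.33), *Cebpa* (0.30), *Runx1* (0.22) and *Spi1* (0.02), while *Mef2c* and *Mef2a* had -0.02 and -0.03, *Sall1* -0.15 and *Cebpb* -0.19.

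Other cell types in the preparation differed between the pools and are given here for the values above. Border-associated macrophages, which share *Spi1* and *Runx1* with microglia, had all 6 expressed markers lower in CD47 KO cells (median Log2 ratio -0.60, summed signal of 10 named genes 2348 in CD47 KO and 3675 in WT), with *Pf4* at -0.47. NK cells had 2 of 3 expressed markers higher (median 0.15) and oligodendrocytes 5 of 9 (0.02, or -0.42 without probe sets whose identifier marks them as possibly shared between genes). Markers were mostly lower for endothelial cells (7 of 9, median -0.38), mural cells and fibroblasts (9 of 11, -0.71) and choroid plexus (4 of 6, -0.37). Their part in the signals of the 9 genes was not tested.

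**Figure D5:**
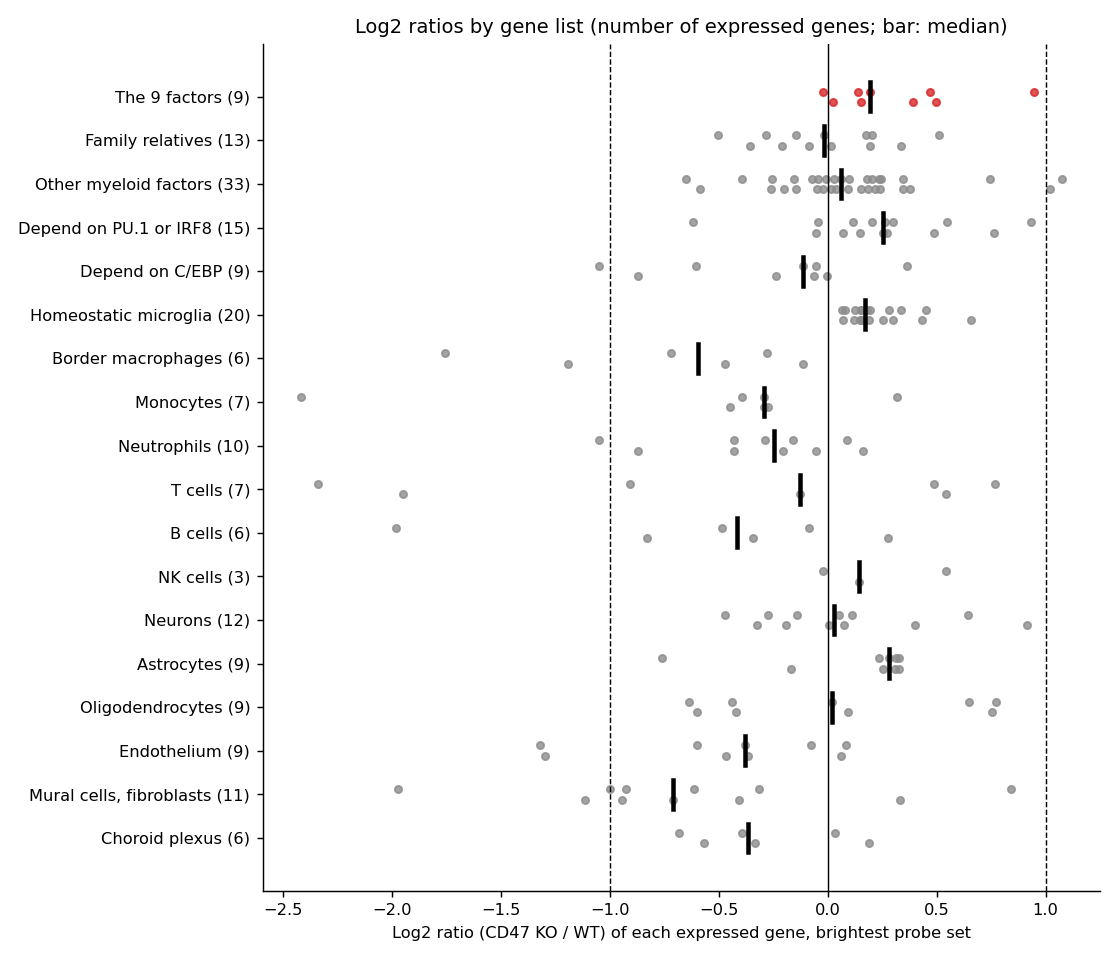
Log2 ratio (KO/WT) of each expressed gene on its brightest probe set, by list, with the number of expressed genes in parentheses, a bar at the median and dashed lines at 2-fold (1 array per genotype). The medians of the 9 genes (0.20), the genes known to depend on PU.1 or IRF8 (0.25) and the microglial markers (0.17) lie to the right of 0, and that of the border macrophage markers (-0.60) to its left. The row labelled homeostatic microglia holds these microglial markers, *Trem2* among them.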

How the data were processed

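Transcripts of mononuclear cells from brain were measured on an Affymetrix whole-genome mouse array, 1 array for a pool of 6 CD47 KO mice and 1 for a pool of 7 WT mice. The deposited values are MAS5 signal intensities per probe set, made by the authors with the Expression Console Software and scaled per array. The mean after removal of 2% of values at each end was 500.002 on both arrays. Its version is not given in the sources used, and no detection calls were used.

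Probe sets were named from GEO's platform annotation, which lists 1 symbol for 34945 of 45101 probe sets, several for 932 and none here for 9160, with 64 controls. Log2 ratios (CD47 KO over WT) were taken without offset and no test was run, because 1 pooled array per genotype leaves no replicate error. Precision is limited by the number of arrays. The 9 genes and the 17 accompanying lists (225 genes, 208 with a named probe set) were chosen with earlier results of these data known. Named were all probe sets of the 9 genes, *Cd47*, the genes past 2-fold or most changed in the lists of factors (up to 6 each) and the brightest of the other lists (up to 3). All expressed relatives were then given. Outside that rule lie *Tmem119*, *Cx3cr1*, *Trem2*, *Elane*, *Mpo*, *Csf3r*, *Itgam*, *P2ry12*, *Cybb*, *Cd4*, *Cd3e*, *Cd28*, *Cd8a* and *Lat*. Promoter motifs were chosen after the data were seen. The calculation was tested on simulated arrays. Python 3.11.15, pandas 2.3.3, numpy 2.4.6, statsmodels 0.14.6 (lowess, fraction 0.4) and matplotlib 3.10.9 were used. Results were recomputed under 10 alternatives that changed the signal threshold, the normalisation, the treatment of low signals or the choice of probe set, and 1 more added after the data were seen.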

Additional observations from a re-analysis of the deposited data

How the results depend on the processing

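No paired analysis was possible because each genotype has 1 pooled array. Results were recomputed under 11 alternative settings, 1 of them, centring on the microglial markers, added after the data were seen. Of the 9 genes, 6 to 9 were higher in CD47 KO cells under the other 10 settings, against 8 as reported. With the threshold at the 75th percentile or the array median required on both arrays, the brightest probe set of *Bhlhe41* was not expressed. The gene was then left out of the count and of the median. Its dimmer probe set (1457096_at, Log2 ratio -0.40) still reached the median of both arrays. The median Log2 ratio of the 9 genes ran from 0.17 to 0.22 under these 10 settings and was 0.02 with ratios centred on the microglial markers. That setting also left 5 of the 9 genes higher in CD47 KO cells and put 2 probe sets, both of *Runx1*, past 2-fold lower. Past 2-fold higher, 1 probe set was counted without a signal threshold (*Cebpb*), 1 after lowess and 1 after quantile normalisation (*Bhlhe41*), against 0 as reported. *Bhlhe41* had 1.02 after lowess, 1.04 after quantile normalisation and 0.27 as a mean over its probe sets. *Runx1* changed sign only as a mean over its probe sets (-0.23). *Sall1* was below 0 under 4 of 11 settings. *Irf8*, *Cebpa*, *Spi1* and *Bhlhe41* stayed above 0 under all 11, but not every setting could change their ratios. The signal thresholds, the raising of low signals and the removal of possibly shared probe sets left their brightest probe sets as they were. For *Bhlhe41* the 11 include settings under which its brightest probe set was not expressed. The T cell markers had a median of 0.49 with the array median required on both arrays and 0.52 with the threshold at the 75th percentile, and the oligodendrocyte markers had -0.42 without probe sets whose identifier marks possible sharing between genes. Under both thresholds *Cd3e* and *Cd28* (-2.34 and -1.95) were not expressed and left the T cell median. *Lat* left it as well at the 75th percentile. The cause of the oligodendrocyte shift was not tested. A signal threshold cannot move the Log2 ratio of a gene on its brightest probe set, because that probe set is chosen without regard to the threshold. Low signal limits precision, the SD between probe sets of a gene being 0.82 in the dimmest quartile and 0.32 in the brightest.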

Other observations

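Among relatives that did not count as expressed on their brightest probe set, *Sall3*, a zinc finger gene known from neural development, had a dimmer probe set (1452386_at) with a signal of 187 in CD47 KO cells and 25.9 in WT cells, a Log2 ratio of 2.85, while its brightest probe set had 133 in CD47 KO and 128 in WT cells. *Irf7*, the interferon-induced regulator of type I interferon genes, had 115 in CD47 KO cells and 52.7 in WT cells, below the median of both arrays. *Spic*, the PU.1 relative of red pulp macrophages, had 8.02 in CD47 KO cells and 29.0 in WT cells on its brighter probe set, and *Runx3*, known from cytotoxic T cells, had 26.4 in CD47 KO and 39.3 in WT cells. These genes were named after their values were seen.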
